A study of Mus musculus with 35 samples.

Results

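The 8 genes described here are transcripts that mouse lung epithelium is known for, read in tumor cells sorted from 3 organs: Sftpc, Sftpb, Sftpa1, Sftpd, Scgb1a1, Ager, Lamp3 and Napsa. They were chosen by gene symbol from the 53465 genes of the count table, and each symbol had 1 gene identifier. Their summed counts made up 0.000802% to 0.00683% of a pancreas library, 0.000868% to 0.0386% of a liver library and 0.0131% to 0.0816% of a lung library.

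The lining of the lung alveolus is made by flat type 1 cells, which carry gas exchange, and by type 2 cells, which make surfactant. Surfactant is a film of lipid and protein that keeps the alveoli open: SP-B and SP-C, encoded by Sftpb and Sftpc, are its small hydrophobic proteins, and SP-A and SP-D, encoded by Sftpa1 and Sftpd, are collectins, soluble lectins of innate defense. Napsa encodes an aspartic protease that helps to process pro-SP-B, and Lamp3 a membrane protein of lysosomes and of the lamellar bodies that store surfactant. Ager, the receptor for advanced glycation end products, marks type 1 cells, and Scgb1a1 encodes the main secreted protein of club cells in the small airways.

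RNA-seq was done on 35 libraries of mKate2+ cells sorted from primary tumors (10 libraries, orthotopic injection), liver metastases (11 libraries, injection into the spleen followed by its removal) and lung metastases (14 libraries, tail-vein injection) of KC-shSmad4 cells. These are mouse PDAC cells that carry Ptf1a-Cre, a reverse tetracycline transactivator linked to mKate2, a doxycycline (Dox)-inducible GFP-linked hairpin against Smad4, and firefly luciferase. Cre activity and hence the reporter started in the pancreatic lineage, and the lines came from male animals and were passaged before use. The hosts were female athymic nude (Foxn1 nu) mice aged 6 to 8 weeks, which lack T cells, and were fed Dox chow. By the labels, Smad4 off stands for mice kept on Dox and Smad4 on for mice that had Dox withdrawn at 4 weeks (pancreas), 5 weeks (liver) or 6 weeks (lungs) after injection. Tumors were taken 7 or 14 days later. The groups labelled off and on held 3 and 2 pancreas libraries, 2 and 3 liver libraries and 4 and 2 lung libraries on day 7. On day 14 they held 2 and 3, 3 and 3, and 4 and 4. Nothing in the labels ties a library to a culture, so p values measure the spread between these libraries.

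Smad4 mRNA went against the labels: it was 77.9 to 132 CPM (the count of a gene scaled to the same total in every library) in the 18 libraries labelled Smad4 off and 14.4 to 23.2 CPM in the 17 labelled Smad4 on, so the labels are used as names only, and which libraries had Dox is not established. Of the 35 libraries, 10 held counts on the mitochondrial gene mt-Co3 (4 liver, 6 lung) and 25 held none. The liver library labelled Smad4 off on day 7, replicate 2, was the single one labelled paired-end and held 8623 CPM of Col1a1, against a liver median of 259 CPM. Library totals were 11885461 to 43571007 counts, which puts 3 counts, taken here as the lowest readable value, at 0.0689 to 0.252 CPM. PCR duplicates were not removed by molecular identifiers, so intervals and floors cover counting error only. Xist, which is transcribed from the inactive X of female cells, was read in all 35 libraries (1.57 to 43.5 CPM), while 4 Y-linked genes reached no more than 3 counts in any library and were at 0 in 28 of them.

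Sequence from before the start of transcription is shown for 3 members, Sftpb and Sftpa1 as surfactant genes that were at or near 0 outside the lungs and Ager as a member read at a low level in every organ. RefSeq promoters of build GRCm38.p6 matched 4 of the 8 members (Sftpb, Sftpa1, Ager and Lamp3). The 250 bases before each start are printed 5′ to 3′ on the gene's own strand, with every match to a searched motif in capitals. Sftpb lies at chr6:72304360-72304609 on the plus strand, Sftpa1 at chr14:41131538-41131787 on the plus strand and Ager at chr17:34597600-34597849 on the plus strand.
Sftpb: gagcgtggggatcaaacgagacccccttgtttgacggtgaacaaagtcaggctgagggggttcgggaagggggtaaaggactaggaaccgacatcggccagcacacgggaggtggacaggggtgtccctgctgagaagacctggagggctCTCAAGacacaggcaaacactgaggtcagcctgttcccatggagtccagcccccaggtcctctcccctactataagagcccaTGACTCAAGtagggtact
Sftpa1: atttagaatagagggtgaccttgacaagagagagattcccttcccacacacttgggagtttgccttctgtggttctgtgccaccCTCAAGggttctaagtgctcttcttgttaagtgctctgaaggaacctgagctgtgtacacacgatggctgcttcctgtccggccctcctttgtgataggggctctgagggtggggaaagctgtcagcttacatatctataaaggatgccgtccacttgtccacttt
Ager: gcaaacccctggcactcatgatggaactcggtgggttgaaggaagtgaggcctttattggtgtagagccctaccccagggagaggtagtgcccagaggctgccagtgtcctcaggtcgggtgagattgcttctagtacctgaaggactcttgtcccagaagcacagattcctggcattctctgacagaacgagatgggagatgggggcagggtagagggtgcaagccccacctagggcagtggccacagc

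The motifs were searched on both strands in the 300 bases that run from 250 before to 50 after the start. CTCAAG, the core letters of sites for NKX2-1, the transcription factor that specifies lung epithelium, matched in Sftpb at positions -100 to -95 and -15 to -10 and in Sftpa1 at -166 to -161. The same letters were found in 15.9% of 32851 promoters of that length. TGACTCA, the AP-1 letters, matched in Sftpb at -18 to -12 and overlaps the nearer CTCAAG there, and 5.20% of promoters hold it. TGTTTAC, a forkhead sequence, matched in Lamp3 at -92 to -86 and is in 3.65% of promoters. CAGAC, the SMAD box, matched after the start in Sftpa1 (10 to 14) and Ager (11 to 15) and is in 49.6% of promoters. GTCTAGAC, the SMAD palindrome, matched in none of the 4 windows and is in 0.213% of promoters. A match describes letters only, and the windows of Sftpb, Sftpa1, Ager and Lamp3 were not tested for binding.

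Sftpc was read in every lung library and in no pancreas library. In build GRCm38 it lies on chromosome 14 from 70520949 to 70524081, on the minus strand. On day 7 the lung libraries labelled Smad4 off held 37.8, 242, 90.5 and 61.1 CPM (replicates 1 to 4), and those labelled Smad4 on held 140 and 54.4 CPM. On day 14 the libraries labelled off held 188, 96.1, 112 and 123 CPM, and those labelled on held 317, 271, 145 and 164 CPM. The lowest lung library thus had 724 counts, and the labelled groups overlapped on both days. All 10 pancreas libraries were at 0, so that the pooled lung level of 148 CPM was at least 9077-fold higher, taking 3 counts over all pancreas libraries as the floor.

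In the liver, Sftpc split by library. The 4 liver libraries with mt-Co3 counts held 5 to 10 Sftpc counts each (0.251 to 0.379 CPM), while the other 7 held 1 count in all. The 4 libraries belong to both labels and both days: labelled off on day 7 (10 counts) and day 14 (5 counts), and labelled on on day 7 (7 counts) and day 14 (7 counts). Against the pooled liver level of 0.0903 CPM, lung Sftpc was 1644-fold higher (95% exact interval of the counts 1152 to 2438), a ratio that mixes both sets of libraries. With mt-Co3 counts, mean Sftpc was 110 CPM in the lungs and 0.309 CPM in the liver. Without them it was 173 CPM and 0.00328 CPM. The part of whatever separates these 4 libraries in the Sftpc counts was not tested.

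Sftpb, Sftpa1, Scgb1a1 and Lamp3 were also read in every lung library and at or near 0 elsewhere, at lower levels than Sftpc. Sftpb (chromosome 6, 72304610 to 72314371, plus strand) was 6.18 to 51.6 CPM in the lungs with a median of 19.5 CPM, and had 2 counts in all pancreas libraries and 9 in all liver libraries. The pooled ratio of lung to pancreas was 2322 (95% interval 643 to 19178) and that of lung to liver 935 (492 to 2045). Sftpa1 (chromosome 14, 41131782 to 41136452, plus strand) was 5.40 to 76.1 CPM in the lungs, median 20.8 CPM, and at 0 in every pancreas library, so that the lungs were at least 1717-fold higher. Its 5 liver counts all lay in 2 libraries with mt-Co3 counts, labelled Smad4 on (3 counts on day 7 and 2 on day 14).

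Scgb1a1 (chromosome 19, 9083636 to 9087958, minus strand) was 4.61 to 85.8 CPM in the lungs, median 18.1 CPM, with 4 counts in all of the pancreas and 4 in all of the liver. Its pooled lung level was 1259-fold that of the pancreas (491 to 4621) and 2280-fold that of the liver (890 to 8371). Lamp3 (chromosome 16, 19653381 to 19706365, minus strand) was the lowest of these 5 genes, 0.781 to 10.2 CPM in the lungs with a median of 2.94 CPM. It had 1 count in the pancreas and 2 in the liver over all libraries, giving ratios of 723 (129 to 28590) and 655 (181 to 5416). In none of the 21 pancreas and liver libraries did Sftpb, Sftpa1, Scgb1a1 or Lamp3 exceed 3 counts.

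Ager and Napsa were highest in the lungs but were also read in the other organs, Ager above 3 counts in every library and Napsa in all but 2 pancreas libraries, which held 2 and 3 counts. Ager (chromosome 17, 34597862 to 34600936, plus strand) was 0.560 to 1.75 CPM in the pancreas, 0.462 to 1.45 CPM in the liver and 6.21 to 27.3 CPM in the lungs, so the lung range lay above both others. Napsa (chromosome 7, 44572380 to 44586862, plus strand) was 0.118 to 1.39 CPM in the pancreas, 0.246 to 2.04 CPM in the liver and 0.586 to 8.02 CPM in the lungs, where the ranges overlapped. The antisense gene Gm15396 shares 6895 bases with Napsa, but it reached at most 0.0586 CPM in any lung library.

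**Figure D1:**
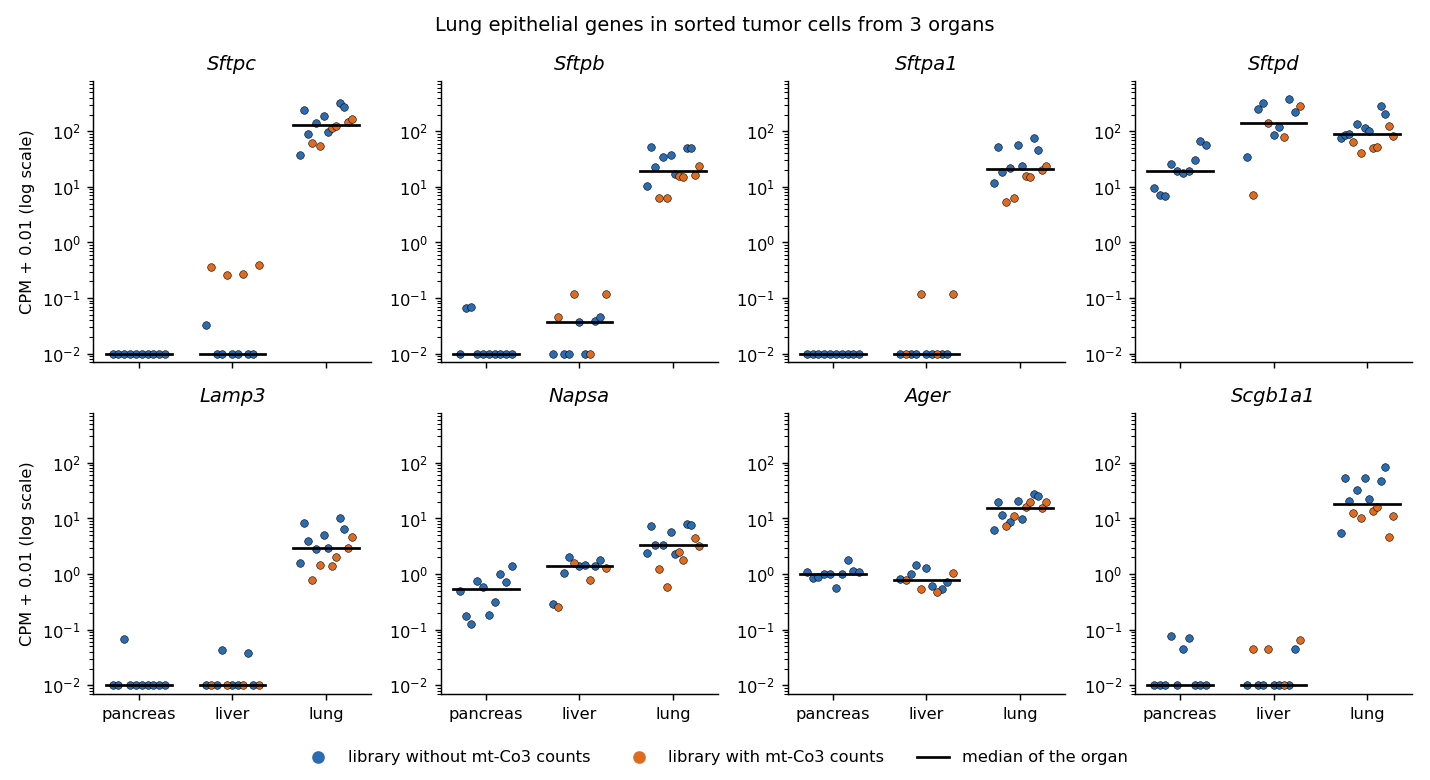
CPM plus 0.01 on a log scale for each of the 8 genes, 1 point per library (10 pancreas, 11 liver, 14 lung), with the organ median as a line and the libraries with mt-Co3 counts in orange. Sftpc, Sftpb, Sftpa1, Lamp3 and Scgb1a1 lie at or near 0 outside the lungs, Ager and Napsa are low there, and Sftpd is well above the floor in all 3 organs.

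Sftpd stood apart from the other members, since it was well above the floor in all 35 libraries, with at least 117 counts in each. It lies on chromosome 14 from 41172214 to 41185149 on the minus strand, 35.8 kb from the end of Sftpa1. Its median was 19.5 CPM among pancreas libraries (6.90 to 66.5), 138 CPM among those of liver (7.24 to 384) and 87.7 CPM among those of lung (41.0 to 281). Sftpd, and at low levels Ager and Napsa, were thus read in sorted cells of all 3 organs, which goes against their use as marks of lung RNA alone.

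The organs were compared in 1 edgeR fit of all 12 groups with equal weight for each organ's 4 groups, and a gene was called at a fold over 2 and a Benjamini-Hochberg adjusted p under 0.05. Of 17547 genes tested, 21.8% were called between lungs and pancreas (13.4% higher in the lungs), 8.57% between lungs and liver (4.55% higher in the lungs) and 20.9% between liver and pancreas (11.5% higher in the liver). Sftpc, Sftpb, Sftpa1, Scgb1a1 and Lamp3 passed the filter on low counts through their lung libraries and so had to differ. No call or p value between organs is given for them. Their fitted folds depend on the prior count and are not given either. Of the other 3 members, Sftpd, Ager and Napsa were called higher in the lungs than in the pancreas, Ager and Napsa higher than in the liver, and Sftpd and Napsa higher in the liver than in the pancreas.

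Ager was 3.81 ± 0.26 (SE) higher in the lungs than in the pancreas on the log2 scale (edgeR adjusted p = 1.68e-10) and 4.00 ± 0.25 higher than in the liver (adjusted p = 3.64e-11), while liver and pancreas did not differ by the test (-0.19 ± 0.24, adjusted p = 0.54). Napsa was 2.81 ± 0.34 higher in the lungs than in the pancreas (edgeR adjusted p = 3.02e-07), 1.73 ± 0.30 higher than in the liver (adjusted p = 0.000189) and 1.08 ± 0.34 higher in the liver than in the pancreas (adjusted p = 0.0109). The call of Napsa between liver and pancreas was lost without any 1 of 4 pancreas libraries, labelled off on day 7 (replicates 2 and 3), labelled on on day 7 (replicate 2) or labelled off on day 14 (replicate 1). That difference was 0.98 to 1.27 with each library left out in turn. The call of Napsa between lungs and liver was lost in the libraries labelled Smad4 on alone (1.05, edgeR adjusted p = 0.0525) and in those of day 7 alone (1.87, adjusted p = 0.0821).

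Sftpd had another order of organs. It was 2.23 ± 0.25 higher in the lungs than in the pancreas (log2, edgeR adjusted p = 1.37e-07) and 2.46 ± 0.26 higher in the liver than in the pancreas (adjusted p = 5.44e-08). Lungs and liver did not differ by the test (-0.23 ± 0.22, edgeR adjusted p = 0.534). In the libraries labelled Smad4 off alone that difference was 0.70 (edgeR adjusted p = 0.145), and in those labelled Smad4 on alone it was -1.18 and was called (adjusted p = 0.0261).

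Other genes of lung epithelium and surfactant were counted in the same fit from lists of symbols. Some were at or under 3 counts in every library of an organ and passed the filter through others. These were Nkx2-1, Scgb3a2, Bpifa1 and Sec14l3 in the pancreas and the liver, and Egfl6, Scgb3a1 and Cyp2f2 in the pancreas. Cyp2f2 was over 3 counts in the liver but reached at most 0.270 CPM there, and passed the filter through the lungs against that organ too. As with the 5 members above, a call of these genes against the organs named adds no support, and the tallies do not leave them out. Of 10 alveolar type 2 genes, 5 were called higher in the lungs than in the pancreas and 1 lower, and 6 were called higher than in the liver and 0 lower. Slc34a2, the phosphate transporter of type 2 cells, was 4.36 ± 0.61 higher than in the pancreas (log2, edgeR adjusted p = 2.19e-06). Nkx2-1 was at 0 in every pancreas and liver library and 0.195 to 1.43 CPM in the lungs. By contrast Abca3, the lipid transporter of lamellar bodies, was read in every organ (medians of 94.7, 125 and 129 CPM for pancreas, liver and lungs) and was not called between lungs and either organ. Etv5 and Lpcat1, which with Abca3 had the highest mean CPM of the type 2 list, were not called between the lungs and either organ.

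Of 15 surfactant metabolism genes, which share Slc34a2, Nkx2-1, Abca3 and Lpcat1 with the type 2 list, 4 were called higher and 2 lower in the lungs than in the pancreas, and 3 higher and 1 lower than in the liver. Dmbt1, a scavenger receptor that binds SP-D, was the most abundant, with medians of 1920, 9161 and 6806 CPM for pancreas, liver and lungs. It was 1.47 ± 0.24 higher in the lungs than in the pancreas (log2, edgeR adjusted p = 2.19e-05) and not called between lungs and liver (-0.16 ± 0.23, adjusted p = 0.69). Ctsh, a protease that processes surfactant proteins, had medians of 128, 435 and 246 CPM in the pancreas, liver and lungs, and Ckap4, a receptor for SP-A, of 287, 100.4 and 131 CPM. Of 5 other collectins, Colec12 (medians of 36.7, 8.95 and 5.32 CPM) was called lower in the lungs against both organs, and Colec11 (0.461, 0.455 and 0.224 CPM) was called lower against the liver. Mbl1 reached at most 0.324 CPM, and Mbl1, Mbl2 and Colec10 were not tested.

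Of 7 alveolar type 1 genes, 2 were called higher and 2 lower in the lungs than in the pancreas, and 3 higher and 0 lower than in the liver. Emp2, Clic5 and Pdpn had lung medians of 100.2, 20.8 and 8.11 CPM, against 175, 2.08 and 21.4 CPM in the pancreas and 107, 25.2 and 14.2 CPM in the liver. Of 6 club cell genes, 4 were called higher and 1 lower than in the pancreas, and 3 higher and 1 lower than in the liver. Cbr2 among them was highest in the liver (median 83.9 CPM, against 6.89 in the lungs), Bpifb1 was highest in the pancreas (median 2.29 CPM, against 0.404 in the lungs) and Cyp2f2 was 0.295 to 4.36 CPM in the lungs. Of 5 ciliated cell genes tested, Ccdc153 was called lower in the lungs than in the liver (-1.90). Sec14l3 was 0.886 to 6.85 CPM in the lungs and never over 3 counts elsewhere, so no call is given for it. Tppp3 and Foxj1 had lung medians of 18.6 and 5.94 CPM and were called against neither organ. The median log2 difference of all genes tested was 0.06 between lungs and pancreas and -0.02 between lungs and liver.

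Of the genes of other cells of the organs, those of endothelium were called higher in the lungs than in the liver, and in part higher than in the pancreas. Of 10 endothelial genes, 10 were called higher in the lungs than in the liver, and their summed level was 84.8 to 156 CPM in the lungs, 14.3 to 134 CPM in the liver and 70.4 to 166 CPM in the pancreas, where 7 were called lower than in the lungs. Ptprb, Cdh5 and Pecam1 had lung medians of 45.9, 26.5 and 12.6 CPM. Their medians were 61.0, 15.6 and 5.01 CPM in the pancreas and 12.7, 4.54 and 1.69 CPM in the liver. The Ptprb median was thus highest in the pancreas. Of 10 leukocyte and macrophage genes, 3 were called higher in the lungs than in the liver and 3 than in the pancreas, where 1 (Csf1r, -1.64) was called lower, with sums of 40.0 to 372 CPM in the lungs, and Lyz2, Cd68 and Csf1r had lung medians of 97.4, 9.43 and 5.33 CPM. Of this list, Marco and Ear2 were at or under 3 counts in every pancreas library. Of 9 fibroblast genes, 6 were called lower in the lungs than in the liver and 7 lower than in the pancreas. Inmt and Tcf21 were called higher against both. Inmt was at or under 3 counts in every pancreas library and at most 0.445 CPM in the liver. It passed the filter through the lungs (12.1 to 52.8 CPM), so its calls against both organs add no support. The fibroblast sum was still 168 to 2221 CPM in the lungs, led by Col3a1, Col1a1 and Col1a2. Of 8 carcinoma epithelial genes, whose sum was 7193 to 14021 CPM in the lungs, 3 were called higher there than in the pancreas and 1 lower than in the liver. Krt8, Krt18 and Krt19 had lung medians of 2873, 2530 and 1968 CPM. The part of host cells in the levels of the members was not tested. In such bulk samples, fewer cells of a type and less RNA per cell cannot be told apart.

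Genes with the pattern most like each member were taken by Pearson's r of log2(CPM + 0.5) over the 35 libraries, as a description that carries the difference between organs. For Sftpc these were Inmt (r = 0.995), Sec14l3 (0.984) and Nkx2-1 (0.957), and for Sftpb the same genes with r of 0.990, 0.983 and 0.968. Inmt, an N-methyltransferase that is in the fibroblast list here, was 12.1 to 52.8 CPM in the lungs, at most 0.445 CPM in the liver and at most 0.116 CPM in the pancreas. Inmt and Sec14l3 were also the nearest of Sftpa1 (0.989 and 0.982, then Limch1 with 0.957), Scgb1a1 (0.978 and 0.975, then Lyz1 with 0.948) and Lamp3 (0.965 and 0.964, then Lyz1 with 0.962). For Ager they were Sec14l3 (0.979), Inmt (0.977) and Cldn5 (0.959), a tight junction gene of endothelium.

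Sftpd and Napsa had other neighbors. For Sftpd these were Rhpn2 (r = 0.966), Adora1 (0.963) and Slc37a1 (0.958), genes that were read in all 3 organs. Rhpn2 was 17.3 to 60.5 CPM in the pancreas, 16.3 to 231 CPM in the liver and 50.5 to 144 CPM in the lungs. Adora1, the adenosine A1 receptor, was 1.01 to 11.5, 1.34 to 41.7 and 5.33 to 37.2 CPM, and Slc37a1 15.0 to 48.5, 12.2 to 153 and 43.5 to 101 CPM. For Napsa they were Cyp4b1 (0.880), Chil1 (0.876) and Cxcl15 (0.868), with lower likeness than for any other member.

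Levels of different genes were compared per kilobase of the transcript length in the count table. In the lungs the order by median was Sftpc with 127 CPM per kb, Scgb1a1 with 38.0, Sftpd with 36.3, Sftpb with 9.92, Ager with 7.33, Sftpa1 with 7.26, Napsa with 1.22 and Lamp3 with 0.880. Each gene's range over the 14 lung libraries overlapped that of the next gene in this order. Within a library, though, Sftpc was above Scgb1a1, Sftpd above Sftpb and Sftpa1 above Napsa in 14 of 14 libraries. Scgb1a1 was above Sftpd in 10, Sftpb above Ager in 11, Napsa above Lamp3 in 11 and Ager above Sftpa1 in 6, so these neighbors had no fixed order. In the liver the order began with Sftpd (57.1), Napsa (0.520) and Ager (0.361), and in the pancreas with Sftpd (8.08), Ager (0.466) and Napsa (0.200), each per kb. Sftpd did not overlap the next gene in either organ.

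The lung libraries differed widely among themselves. The highest library held 18.6 times the lowest for Scgb1a1, 14.1 times for Sftpa1, 13.7 times for Napsa, 13.1 times for Lamp3, 8.40 times for Sftpc, 8.34 times for Sftpb, 6.85 times for Sftpd and 4.40 times for Ager. The library labelled Smad4 on on day 14, replicate 1, was the highest for Sftpc, Sftpa1, Sftpd, Ager, Lamp3 and Napsa.

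Relations among the members within the lungs were tested as 15 relations, 7 with Sftpc and 8 with Xist, each of log2(CPM + 0.5) over the 14 lung libraries, with two-sided permutation p values of 100000 resamples and adjustment over the 15. Sftpc rose together with all 7 other members. The relation was closest with Sftpb (Pearson's r = 0.896, p = 4e-05, adjusted 0.0004, Spearman's rho = 0.873, p = 0.00014, adjusted 0.00084) and Sftpa1 (r = 0.886, p = 7e-05, adjusted 0.0004, rho = 0.868, p = 9e-05, adjusted 0.00084). Ager (r = 0.869, permutation p = 8e-05, adjusted 0.0004, rho = 0.851, p = 0.00021, adjusted 0.00084), Lamp3 (r = 0.856, p = 0.00018, adjusted 0.00054, rho = 0.846, p = 0.00028, adjusted 0.00084) and Napsa (r = 0.846, p = 0.00017, adjusted 0.00054, rho = 0.846, p = 0.00025, adjusted 0.00084) were near them. Scgb1a1 (r = 0.722, permutation p = 0.00386, adjusted 0.00905, rho = 0.662, p = 0.0124, adjusted 0.0266) and Sftpd (r = 0.700, p = 0.00541, adjusted 0.00905, rho = 0.684, p = 0.0088, adjusted 0.022) were the loosest.

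Without the libraries farthest from the Sftpc median, replicate 1 labelled off on day 7 and replicate 1 labelled on on day 14, r was 0.922 for Sftpb, 0.915 for Sftpa1, 0.928 for Napsa, 0.847 for Lamp3, 0.779 for Ager, 0.684 for Sftpd and 0.615 for Scgb1a1. Within the 8 lung libraries without mt-Co3 counts, r was 0.973 for Sftpb, 0.954 for Scgb1a1, 0.938 for Sftpa1, 0.929 for Lamp3, 0.916 for Ager and 0.910 for Napsa, all with adjusted exact permutation p values of 0.00305 to 0.00378, and 0.734 for Sftpd (adjusted 0.0789). Within the 6 with mt-Co3 counts it was 0.985 for Sftpa1, 0.980 for Sftpb, 0.910 for Napsa, 0.860 for Ager, 0.819 for Lamp3 and 0.622 for Sftpd, with adjusted p values of 0.0347 to 0.0365 for Sftpa1, Sftpb and Napsa, 0.0868 to 0.0911 for Ager and Lamp3 and 0.220 for Sftpd by the exact permutation test, but -0.228 for Scgb1a1 (exact permutation p = 0.728, adjusted 0.728). Thus Scgb1a1 did not follow Sftpc in those 6 libraries, where it was 4.61 to 15.8 CPM, while in the other 8 it was 5.53 to 85.8 CPM.

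**Figure D2:**
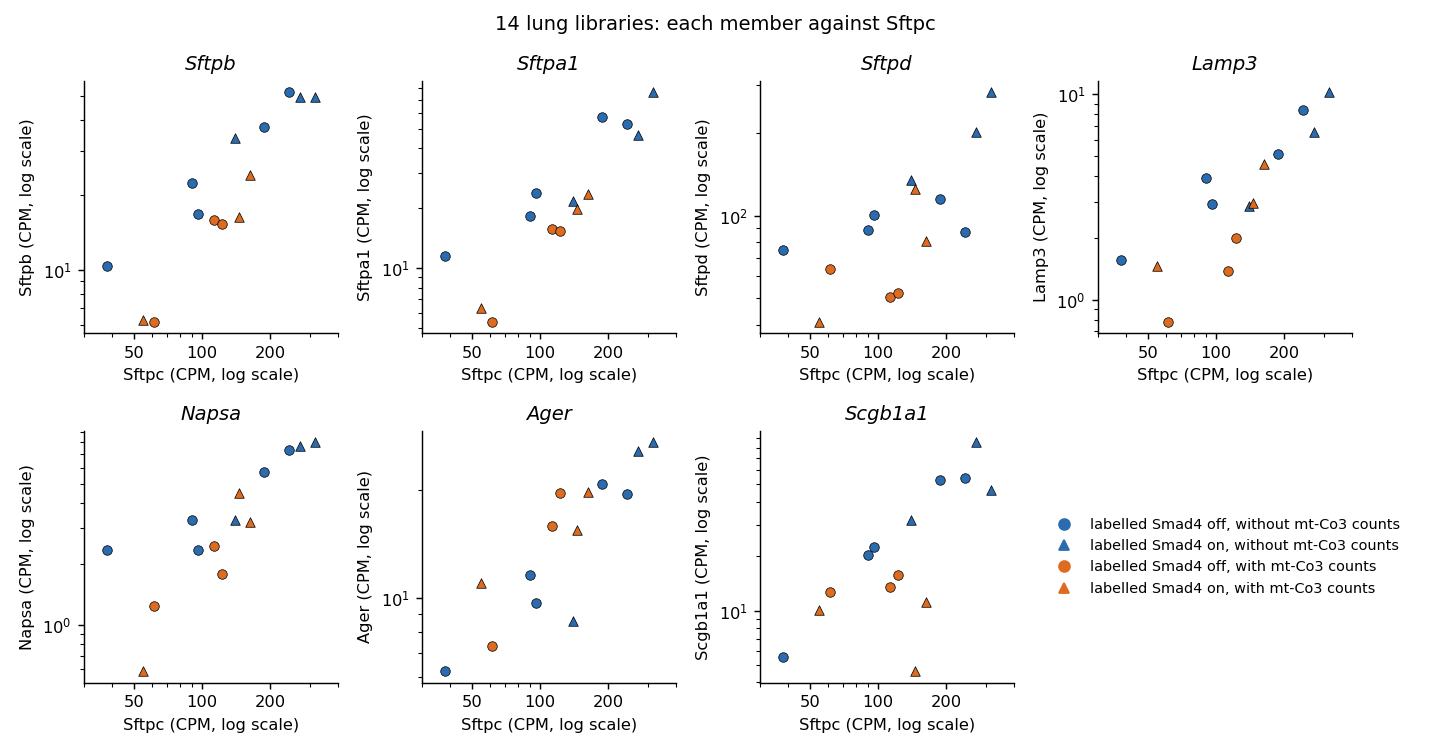
CPM of each other gene against Sftpc in the 14 lung libraries, both axes on log scales, with circles for libraries labelled Smad4 off, triangles for those labelled Smad4 on and orange for the 6 libraries with mt-Co3 counts. Sftpb, Sftpa1 and Lamp3 climb with Sftpc in both colors, with the orange points mostly lower, whereas the orange points of Scgb1a1 do not climb.

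The members were not in 1 fixed ratio to Sftpc. The ratio of Sftpb to Sftpc was 0.156 to 0.273 in the 8 libraries without mt-Co3 counts and 0.101 to 0.147 in the 6 with them, with no overlap, and that of Sftpa1 was 0.155 to 0.305 and 0.0885 to 0.143. For Ager the medians had the reverse order, 0.0977 without and 0.131 with mt-Co3 counts, but the ranges overlapped (0.0611 to 0.164 and 0.106 to 0.202). The ratio of Sftpd to Sftpc spread widely, from 0.359 to 1.98.

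Xist formed a pair of separate sets in the lungs, 7.30 to 23.5 CPM in the 8 libraries without mt-Co3 counts and 2.29 to 5.35 CPM in the 6 with them, so no pooled relation is given for it. Within the 8, r of Xist with the members ran from -0.078 (Sftpd) to 0.299 (Napsa), with adjusted exact permutation p values of at least 0.932. Within the 6, it was 0.880 with Sftpc (exact permutation p = 0.00278, adjusted 0.0347) and not past the threshold with the 7 others. Leukocyte genes moved the same way as Xist, with sums of 104 to 372 CPM in the 8 libraries and 40.0 to 117 CPM in the 6. This was not particular to them. The alveolar type 2 sum was 221 to 362 CPM in the 8 and 163 to 209 CPM in the 6, and that of other collectins 5.14 to 10.2 and 1.64 to 4.43 CPM. By contrast the endothelial sum was 96.4 to 156 CPM and 84.8 to 147 CPM, and the ciliated cell sum 23.0 to 43.3 and 23.7 to 41.2 CPM. The part of these in the levels of the members was not tested.

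The labelled groups were compared in each organ and day to ask which members differed between the Smad4 labels, with edgeR fitted on the libraries of that organ and day. In the pancreas on day 7, Sftpd was higher where Smad4 was labelled on. It was 9.42, 7.15 and 6.90 CPM in the libraries labelled off and 25.6 and 19.4 CPM in those labelled on, a log2 difference of 1.51 ± 0.20 (SE, edgeR adjusted p = 0.0288), in a comparison where 1.33% of 14439 genes were called and 0.956% were called higher. Among the members it was the sole call in the 6 edgeR comparisons fitted with neither a replicate block nor a term for mt-Co3 counts. The call was lost without any 1 of 3 libraries, labelled off replicate 3 (adjusted p = 0.104), labelled on replicate 1 (adjusted p = 0.144) or labelled on replicate 2 (adjusted p = 0.0568), while the difference was 1.27 to 1.70. Genes of other cells differed in the same libraries. The acinar sum was 2229 to 3569 CPM in those labelled off and 811 to 1074 CPM in those labelled on (3 of 8 genes called lower), and the fibroblast sum 11399 to 17313 CPM and 23823 to 24391 CPM (2 of 7 genes tested called higher). Their part in the level of Sftpd was not tested.

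On day 14 in the pancreas, Sftpd was 17.9 and 19.6 CPM in the libraries labelled off and 30.9, 66.5 and 57.0 CPM in those labelled on, again without overlap. The difference of 1.36 ± 0.34 missed the threshold (edgeR adjusted p = 0.069, with 4.64% of genes called), but was called by DESeq2 (1.35, adjusted p = 8.21e-05, with 832 of 14234 genes called) and, at 1.61, without labelled on replicate 1 (edgeR adjusted p = 1.12e-07). The carcinoma epithelial sum was 4493 to 4731 CPM in the libraries labelled off and 6196 to 8418 CPM in those labelled on (0 of 8 genes called), and its part was not tested. Of 14234 genes, 34.0% lay higher without overlap in this comparison, and 23.2% of 14439 on day 7.

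In the liver the same order held. On day 7, Sftpd was 34.6 and 7.24 CPM in the libraries labelled off and 255, 322 and 138 CPM in those labelled on, a difference of 3.40 ± 0.76 (edgeR adjusted p = 0.0792, with 0.444% of genes called). The lowest value is the paired-end library, and without it the difference was 2.72 and not called. Without the other library labelled off, replicate 1, it was 4.80 and called (edgeR adjusted p = 0.00841), a fit in which the paired-end library alone stood for its group and was assumed to vary like the others. On day 14, Sftpd was 85.5, 118 and 77.8 CPM in the libraries labelled off and 384, 223 and 288 CPM in those labelled on. The difference of 1.604 ± 0.26 was not called by edgeR (adjusted p = 0.357, with 0% of 14947 genes called), but was by DESeq2 (1.59, adjusted p = 4.2e-05, with 332 of 14947 genes called). The groups did not overlap on either day, as was so, with the libraries labelled on higher, for 28.4% of genes on day 7 and 9.21% on day 14.

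In the lungs the labelled groups overlapped. On day 7 Sftpd was 74.9, 86.9, 88.5 and 63.6 CPM in the libraries labelled off and 135 and 41.0 CPM in those labelled on (0.21 ± 0.37, edgeR adjusted p = 0.998). The sign turned without labelled on replicate 1 (-0.71). On day 14 it was 115, 101, 50.4 and 52.1 CPM in the libraries labelled off and 281, 202, 125 and 81.1 CPM in those labelled on, a difference of 1.09 ± 0.38 (edgeR adjusted p = 0.374). With the replicate number as a block, since libraries of the same number deviated together here, Sftpd was called (1.02, edgeR adjusted p = 0.015, with 109 of 14751 genes called), as it was with a term for the libraries with mt-Co3 counts (1.05, adjusted p = 0.0213). The replicates that share a number in this comparison also share the presence of mt-Co3 counts: replicates 1 and 2 have none, and replicates 3 and 4 have them.

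**Figure D3:**
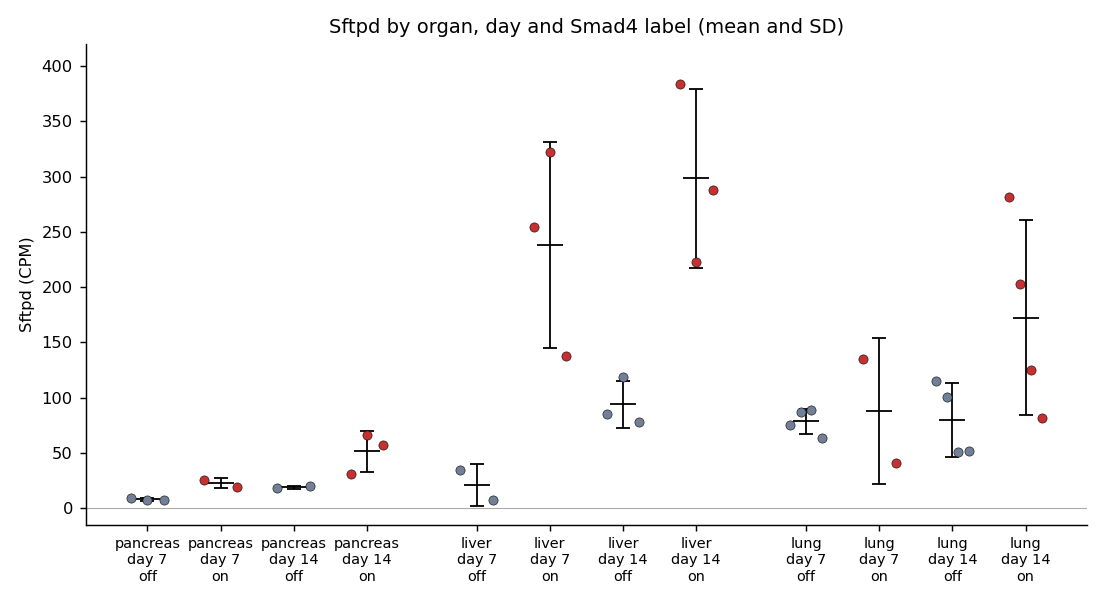
Sftpd in CPM in each of the 12 groups, 1 point per library, with the mean as a line and the SD as bars, grey for libraries labelled Smad4 off and red for those labelled Smad4 on. In the pancreas and liver the red points lie above the grey points of the same day, and in the lungs they overlap.

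Napsa moved like Sftpd in part. In the liver on day 7 it was 0.275 and 0.246 CPM in the libraries labelled off and 1.05, 2.04 and 1.58 CPM in those labelled on, a difference of 2.40 ± 0.54 (edgeR adjusted p = 0.0792). Napsa was called there by DESeq2 (adjusted p = 0.00208), which called 2842 of 16007 genes in that comparison. In the pancreas on day 14 it was 0.175 and 0.311 CPM against 0.982, 0.717 and 1.39 CPM (1.95 ± 0.57, edgeR adjusted p = 0.0612), and was called without labelled on replicate 1 (1.97, adjusted p = 0.0303). In the liver on day 14 the difference was 0.24 ± 0.44 (edgeR adjusted p = 0.912), with an opposite sign without labelled off replicate 3. On day 7 in the pancreas Napsa had 2 to 11 counts per library and did not pass the filter on low counts. Ager was tested in all 6 comparisons and called in none. Its labelled groups did not overlap in the pancreas on day 14 (0.560 and 0.994 CPM against 1.75, 1.12 and 1.07 CPM). There 34.0% of 14234 genes lay higher without overlap, and the Ager difference was 0.66 ± 0.46 (edgeR adjusted p = 0.396).

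With neither the replicate block nor the term for mt-Co3 counts, no member was called between the labels in the lungs by edgeR. In those fits 0% of 15193 genes were called on day 7 and 0.0271% of 14751 on day 14. On day 7 the log2 differences ran from -0.86 ± 0.87 (Napsa) to 0.21 ± 0.37 (Sftpd), with 0 members at an unadjusted p under 0.05 and 0 called by DESeq2. On day 14 they ran from 0.36 ± 0.26 (Ager) to 1.09 ± 0.38 (Sftpd), with 3 members (Sftpc, Sftpd and Lamp3) at an unadjusted p under 0.05 and 0 called by DESeq2. In the 4 pairs of the same number on day 14, the library labelled on was higher in 4 of 4 for Sftpc, Sftpb, Sftpa1, Sftpd, Lamp3 and Napsa, in 3 for Ager and in 1 for Scgb1a1. The share of all genes higher in 4 of 4 was not counted. The members also rose together across the lung libraries (r = 0.951 for Sftpb with Sftpa1), so they are not separate observations. Of the members, the blocked fit called Sftpd alone, with 109 of 14751 genes called. The SEs on day 7 ran from 0.37 (Sftpd) to 0.92 (Lamp3). Sftpc, Sftpb, Sftpa1, Scgb1a1 and Lamp3 were at or near the floor in the pancreas and liver, so that no comparison of labels could be made for them there.

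**Figure D4:**
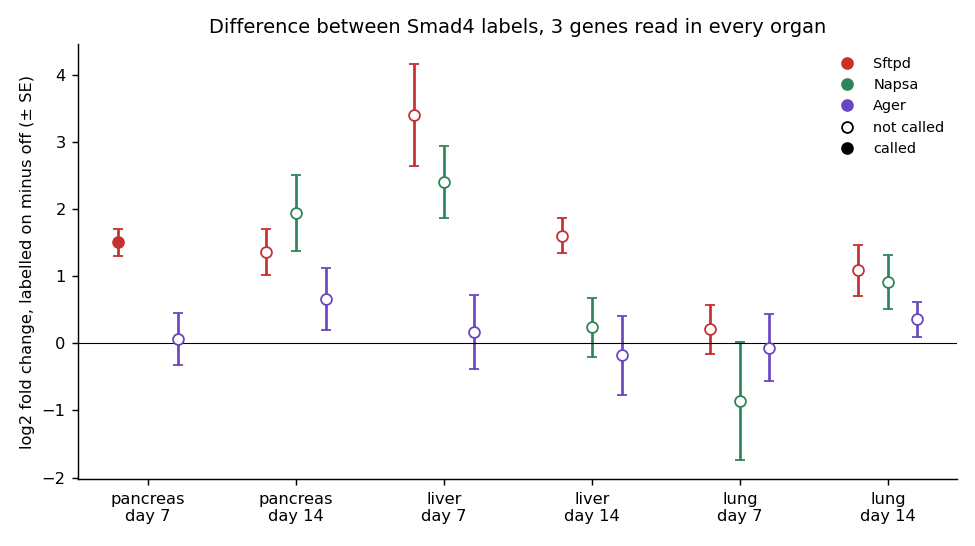
Log2 fold change of libraries labelled Smad4 on minus off with its SE, from edgeR, for Sftpd, Napsa and Ager in each organ and day, filled where called. Sftpd is above 0 in all 6 comparisons, from 0.21 in the lungs to 3.40 in the liver on day 7, and is called in the pancreas on day 7.

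Whether the response to the label differed between the lungs and the other organs was tested in the fit of all 12 groups. On day 7 the log2 response of Sftpd was lower in the lungs than in the liver by -3.28 ± 0.73 (edgeR adjusted p = 0.00509) and that of Napsa by -3.35 ± 0.95 (adjusted p = 0.0196), in a contrast where 11.6% of genes were called, and 7.15% with a lower response in the lungs. Both calls were lost without lung labelled on replicate 2, which has mt-Co3 counts (-2.66 with adjusted p = 0.053 and -2.56 with adjusted p = 0.12). Without the paired-end liver library that of Napsa was lost (-3.39, edgeR adjusted p = 0.0859), and among libraries without mt-Co3 counts it was -2.84 (adjusted p = 0.122), while Sftpd was called in both. The same test against the pancreas on day 7 gave -1.29 ± 0.70 for Sftpd (edgeR adjusted p = 0.549), with 0.0114% of genes called, 0 members called by edgeR or DESeq2 and 1 (Napsa) at an unadjusted p under 0.05. On day 14 the differences of Sftpd were -0.55 ± 0.59 against the liver and -0.24 ± 0.63 against the pancreas (edgeR adjusted p = 1 for both, 0% of genes called), and 0 members were called or had an unadjusted p under 0.05.

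Between the days, no member was called in the lungs by edgeR or DESeq2, and 0% of 17547 genes were called. Among the libraries labelled off the log2 differences of day 14 against day 7 ran from -0.33 ± 0.63 (Lamp3) to 0.64 ± 0.35 (Ager), with 0 members at an unadjusted p under 0.05. Among those labelled on they ran from 0.78 ± 0.91 (Scgb1a1) to 1.62 ± 0.65 (Napsa), with 2 members (Ager and Napsa) at an unadjusted p under 0.05 and the smallest edgeR adjusted p at 0.555.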

How the data were processed

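RNA-seq of sorted mKate2+ cells was read from counts per gene, deposited by the authors for 35 libraries. Polyadenylated RNA was made into stranded libraries with 15 PCR cycles and read as 75-base single ends, except that 1 liver library is labelled paired-end. Per the submitters' processing notes, FastQC 0.11.5, Trimmomatic 0.36, STAR 2.5.3a and featureCounts 1.6.3 were used with mm10/GRCm38, and the strand setting of the counting is not given in the sources used here. The number of columns that belong to no sample was 0, and every library's counts were used as deposited.

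Counts were tested with edgeR 4.0.16 in R 4.3.3 (TMM scaling, filterByExpr with a minimum count of 10 and a minimum total of 15, robust quasi-likelihood F test, Benjamini-Hochberg adjustment over all genes tested). A gene was called at a fold over 2 and an adjusted p under 0.05. Organs, responses and days were contrasts of 1 fit of 12 groups, and labels were fitted within an organ and day. CPM was computed from library totals, log values used a pseudocount of 0.5 CPM, and relations were tested by permutation in scipy 1.17.1. The floor was 3 counts, and intervals are exact at 95%. The scripts were tested on simulated data with 200 genes changed 4-fold. For liver day 7, edgeR recovered 12% with 5 false calls, and DESeq2 63% with 91. For liver day 14 these were 59.5% with 11 and 78.5% with 70, and for lung day 7 50.5% with 9 and 70.5% with 53. In the other simulated comparisons edgeR recovered 79% to 88.5%. A missing edgeR call in liver or lung day 7 thus does not show that a gene was equal.

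The members and lists were chosen with earlier results of these data known. Named list genes were the 3 with the highest mean CPM of each list plus those the members' results turn on, which were chosen after their values were seen, and neighbors were the 3 genes with the highest r. Alternatives were DESeq2 1.42.0, a minimum count of 30, no filter, other scalings, single labels or days, a term for libraries with mt-Co3 counts, the replicate number as a block, and each library left out. Of 37 replicate pairs, 0 were identical. Replicate numbers pair libraries where same-numbered libraries deviate together: on day 14 the correlations of deviations were 0.546, 0.575, 0.653 and 0.598 in the lungs, which met this, and 0.049, 0.033 and 0.479 in the liver, which did not. The other comparisons share 2 numbers each.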

Additional observations from a re-analysis of the deposited data

Results flagged for a closer look

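In the lung libraries labelled Smad4 off on day 14, replicate 1 stood far above the other 3 for Sftpb (37.5 CPM) and for Napsa (5.71 CPM). These were 2 of 24 gene groups looked at, and chance gives about 1 in 20.

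The response to the label on day 7 differed between lungs and liver for Sftpd (-3.28 on the log2 scale) and Napsa (-3.35) by the edgeR interaction test. Both rest on few libraries: they were not called without lung labelled on replicate 2 (-2.66 and -2.56).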

How the results depend on the processing

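Of 1476 recomputed log2 fold changes of 39 values, 1434 kept their direction and side of the threshold, 19 lost the call, 15 gained it and 8 changed sign. The 39 values include the folds of Sftpc, Sftpb, Sftpa1, Scgb1a1 and Lamp3 between the lungs and the other organs, whose side the filter fixed. Part of the 1434 was thus settled in advance. All 24 levels moved by less than the spread.

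Between liver and pancreas, the 2 calls became 1 in libraries labelled off alone, labelled on alone and of day 7 alone, and 1 to 2 with 1 library left out. The 2 calls of the response between lungs and liver on day 7 became 1 with the replicate block and 1 without the libraries with mt-Co3 counts, and 0 to 2 with 1 library left out. The single call in the pancreas on day 7 became 0 in the fit of all 12 groups and 0 with the replicate block (Sftpd 1.42, edgeR adjusted p = 0.194), and 0 to 1 with 1 library left out. The 0 calls in the liver on day 7 became 2 in the fit of all 12 groups, by DESeq2 and without the libraries with mt-Co3 counts, 1 with a term for them, and 0 to 1 with 1 library left out. On day 14 DESeq2 made 1 call for pancreas and 1 for liver, where edgeR made 0, and leaving out 1 library gave 0 to 2 in the pancreas. In the lungs on day 14 the 0 calls became 1 with the replicate block and 1 with the mt-Co3 term. The replicate block changed no other count of called members. Of 15 relations in the lungs, 13 passed in all 14 libraries, 6 without and 4 with mt-Co3 counts alone. Of the 13, 6 were pooled relations with Xist, which splits by mt-Co3 counts, and 0 of these passed in the 8 libraries without them.

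Sftpd between lungs and liver (-0.23) was 0.70 in libraries labelled off, 0.12 on day 7, and -0.47 to 0.13 with 1 library left out. With 1 library left out, Sftpd by label in the lungs on day 7 was -0.71 to 0.76, Napsa in the liver on day 14 -0.0135 to 0.41, Lamp3 between days (labelled off) -0.71 to 0.54 and Scgb1a1 between days (labelled on) -0.0106 to 1.68. With the mt-Co3 term Lamp3 was 0.0897. The r of Sftpc with Scgb1a1 was -0.228 in libraries with mt-Co3 counts. The cause of these changes was not tested.

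All-gene calls by edgeR, DESeq2 and the replicate block were, for day 7, 192, 517 and 0 (pancreas), 71, 2842 and 0 (liver), and 0, 102 and 4 (lungs). For day 14 they were 661, 832 and 553 (pancreas), 0, 332 and 0 (liver), and 4, 197 and 109 (lungs). Napsa had 2 to 17 counts in a pancreas library, which limits the precision of its values there.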
